A study of Homo sapiens with 39 samples.

Results

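The genes described here are 40 human genes of DNA replication and S phase, chosen by name from the licensing, helicase, clamp, polymerase, nucleotide supply, G1/S and replication-coupled chromatin machinery, out of 18555 genes measured. Each gene was represented by its brightest array probe, and all 40 passed the filter on dim probes. RNA had been measured on 39 Illumina bead arrays in 2 human lung cancer cell lines, H838 (an adenocarcinoma line, 20 arrays) and H209 (a small cell carcinoma line, 19 arrays). Cells were plated a day ahead and then received either 100 nM DKFZ-608, which the labels call a non-covalent inhibitor of thioredoxin reductase, in 6.9 µM cyclodextrin, or cyclodextrin alone (vehicle), for 4, 8 or 24 h, and 0 h arrays of each line had cyclodextrin only. Line, treatment and time make 14 groups of 3 arrays, apart from the 8 h groups of H209 (vehicle and DKFZ-608) and treated H838 at 24 h, with 2 each. Every group is thus 1 line grown in culture and exposed to cyclodextrin, and no group without cyclodextrin was included.

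Before S phase, the origin recognition complex, CDC6 and CDT1 load the MCM helicase onto DNA, a step called licensing. Kinases then bring CDC45 and the GINS complex to the helicase, polymerases copy both strands, the RFC complex loads the sliding clamp PCNA, and RPA covers the single strands. Many of these genes are known targets of E2F transcription factors, which are released from the retinoblastoma protein late in G1 and raise their transcripts as cells enter S phase. In lung cancer, small cell tumours typically lose the retinoblastoma protein, and replication genes are used as markers of proliferating cells in either tumour type.

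Values below are log2 probe intensity unless said otherwise. Levels of different probes were not compared with each other, since probes differ in brightness. The medians of the arrays were close together, at 92.6 to 94.18 intensity units, and precision is set by how many arrays each group holds. No background had been subtracted to 0, so changes of dim probes are understated, and 2 members, CCNE2 and GINS1, had a mean below the value used to filter probes (log2 6.55). At 0 h, all 8 measured neuroendocrine markers were higher in H209, while H838 had a high level of VIM (12.30 against 7.54 in H209) and KRT19 and CDH1 near the filter value (6.52 and 6.54). Of the 7 epithelial and mesenchymal markers listed for H838, 5 were higher in H209 and 1, VIM, in H838. Markers of fibroblasts, leukocytes and endothelium lay between 6.33 and 6.95 in both lines. In 4 H209 arrays the levels of MT1M and HMOX1, which respond to the drug in this line, ran against the label: the vehicle arrays 8 h replicate 2 (MT1M 12.17, HMOX1 12.47) and 24 h replicate 3 (10.65 and 11.01) were high, and the treated arrays with the same numbers were low (6.56 and 8.09, and 6.33 and 7.47). Results that rest on H209 are therefore given with and without these 4 doubted arrays.

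Of the 40 members, 34 had a promoter in the RefSeq table used here (build GRCh38.p14, 250 bases before to 50 bases after the start site), and 19 of these (55.88%) held at least 1 of 4 E2F words on either strand, against 3.99% of all 27305 genes of the table. The words searched were TTTCCCGC, TTTGGCGC, TTTCGCGC and TTTGCCGC. Of the 6 members whose transcript fell in H838 vehicle cultures over 24 h, described next, CDT1, GINS3 and UHRF1 held a word and CCNE1, CHAF1A and RFC4 did not. TYMS and LIG1 held one too, and neither fell. Capitals mark the word in the sequences that follow, shown 5′ to 3′ on the gene's strand to set those that fell beside those that did not; CCNE1 has none of the words in this window. The regions are chr16:88803539-88803838 (plus strand) for CDT1, chr16:58392221-58392520 (plus) for GINS3, chr19:4909251-4909550 (plus) for 1 of the 3 start sites of UHRF1, chr19:29811741-29812040 (plus) for CCNE1, chr18:657403-657702 (plus) for TYMS and chr19:48170295-48170594 (minus) for LIG1.
CDT1: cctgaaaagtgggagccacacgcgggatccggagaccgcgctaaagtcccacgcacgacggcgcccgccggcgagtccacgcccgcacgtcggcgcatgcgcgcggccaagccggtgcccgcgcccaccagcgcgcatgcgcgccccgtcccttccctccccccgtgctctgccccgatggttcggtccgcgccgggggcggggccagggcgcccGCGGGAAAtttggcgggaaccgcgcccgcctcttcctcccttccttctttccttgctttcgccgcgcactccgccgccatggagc
GINS3: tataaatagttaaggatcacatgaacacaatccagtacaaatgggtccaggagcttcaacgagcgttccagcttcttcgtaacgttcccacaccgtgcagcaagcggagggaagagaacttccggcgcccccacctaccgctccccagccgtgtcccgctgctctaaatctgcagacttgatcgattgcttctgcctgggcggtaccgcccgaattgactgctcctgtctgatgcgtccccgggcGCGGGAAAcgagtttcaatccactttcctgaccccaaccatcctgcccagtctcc
UHRF1: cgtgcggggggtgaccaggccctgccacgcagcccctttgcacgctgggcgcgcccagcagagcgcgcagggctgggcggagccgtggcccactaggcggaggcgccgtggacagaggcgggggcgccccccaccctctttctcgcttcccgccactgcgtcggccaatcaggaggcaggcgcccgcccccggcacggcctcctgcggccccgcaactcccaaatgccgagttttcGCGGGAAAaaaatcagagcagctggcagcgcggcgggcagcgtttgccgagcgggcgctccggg
CCNE1: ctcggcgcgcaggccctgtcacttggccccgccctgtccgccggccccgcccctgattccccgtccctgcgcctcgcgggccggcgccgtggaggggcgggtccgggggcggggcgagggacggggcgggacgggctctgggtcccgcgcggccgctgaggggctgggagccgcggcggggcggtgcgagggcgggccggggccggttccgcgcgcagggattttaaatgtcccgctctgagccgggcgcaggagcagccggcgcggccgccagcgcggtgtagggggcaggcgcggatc
TYMS: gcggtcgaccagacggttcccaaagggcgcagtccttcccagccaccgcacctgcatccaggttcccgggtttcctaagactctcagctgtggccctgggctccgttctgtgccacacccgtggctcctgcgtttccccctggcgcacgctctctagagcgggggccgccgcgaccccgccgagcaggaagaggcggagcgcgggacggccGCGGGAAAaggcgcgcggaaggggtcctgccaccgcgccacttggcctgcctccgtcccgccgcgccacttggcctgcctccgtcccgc
LIG1: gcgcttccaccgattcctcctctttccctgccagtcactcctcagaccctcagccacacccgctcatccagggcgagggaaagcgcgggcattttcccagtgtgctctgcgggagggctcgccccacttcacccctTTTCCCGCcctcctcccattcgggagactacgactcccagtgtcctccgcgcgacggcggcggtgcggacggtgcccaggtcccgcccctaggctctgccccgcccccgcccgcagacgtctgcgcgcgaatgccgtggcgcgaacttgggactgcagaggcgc

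The word began at position -35 from the start site in CDT1, -5 in GINS3, -14 in UHRF1, -39 in TYMS and -114 in LIG1. It read GCGGGAAA on the gene's strand in the first 4 and TTTCCCGC in LIG1, which is the same word seen from the other strand. A match is a description of these letters and not a measured site. With only the first 2 words, 17 of 34 members (50%) held one, against 2.75% of all genes. The CCAAT box (CCAAT, either strand) stood in 21 of 34 (61.76%) against 39.7%, and the CHR word TTTGAA, known from promoters of mitosis genes, in 1 (2.941%, RRM1) against 18.2%. The median log2 difference between vehicle cultures of H838 at 24 h and 0 h was -0.23 for the 19 members with an E2F word, running from -0.75 to 0.34, and -0.16 for the 15 without, running from -0.66 to 0.13. The ranges of the 2 sets overlapped almost wholly.

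In H838 cultures given vehicle alone, 6 of the 40 members fell between 0 and 24 h and none rose. They were CDT1 (licensing), CCNE1 (G1/S control), UHRF1 and CHAF1A (chromatin behind the fork), GINS3 (helicase) and RFC4 (clamp loader), and they fell by 0.38 to 0.75 on the log2 scale. Over all genes tested, 0.83% were lower and 1.89% were changed in either direction, so the members' 6 of 40 (15%) lies above that background. The members were chosen with earlier results of these data known, which limits this comparison. Over all 40 the median log2 difference was -0.19, against 0.00 for all genes, and 30 members were below 0 and 10 above. In 15 members every 24 h array lay below every 0 h array, which held for 7.72% of all genes, and in 1, RPA3, every 24 h array lay above (8.16% of all genes). The test was limma's moderated test with Benjamini-Hochberg adjustment over all 18555 genes, called at an adjusted p under 0.05.

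**Figure D1:**
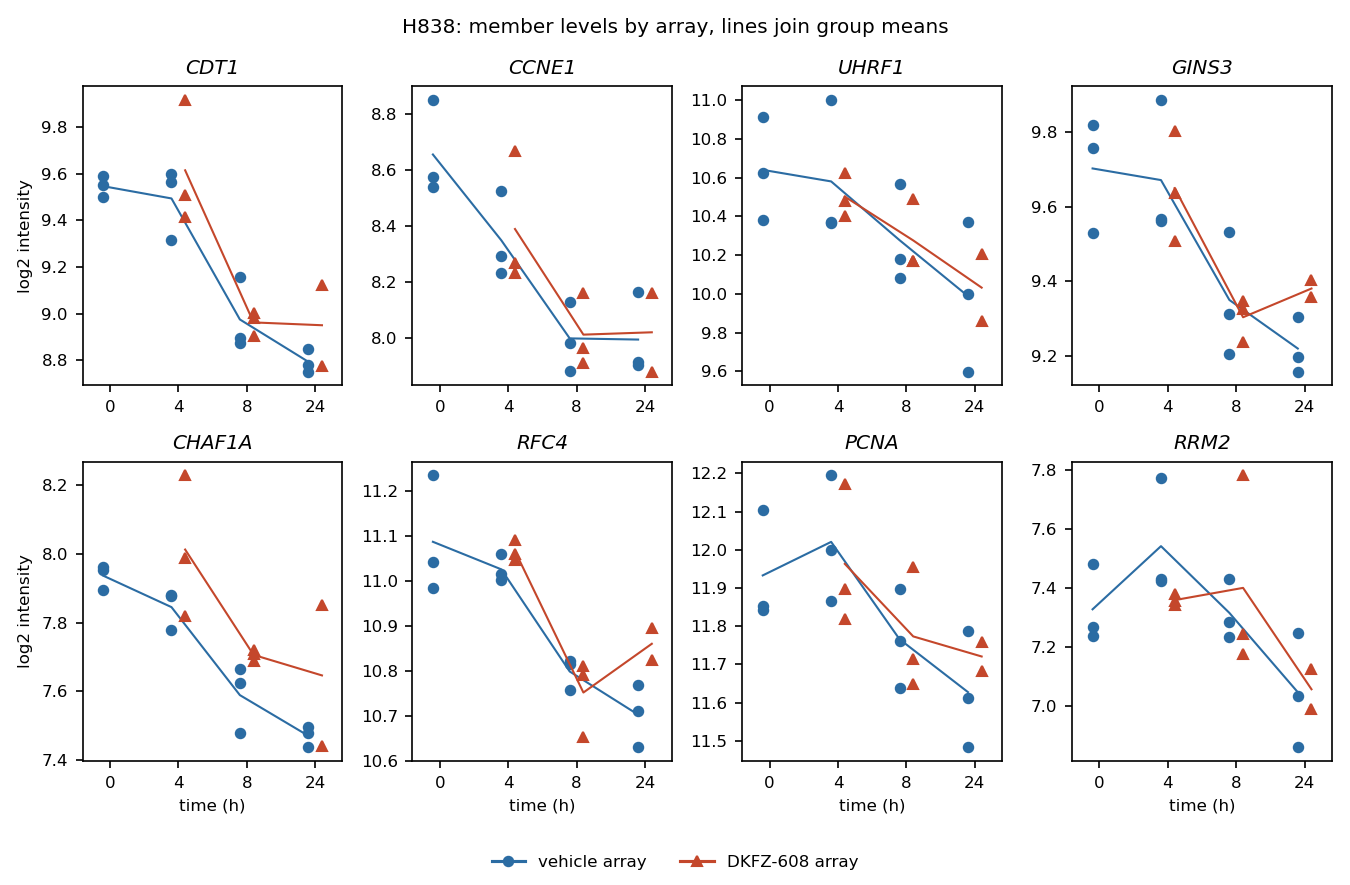
Log2 intensity of 8 members in each H838 array (y axis) at 0, 4, 8 and 24 h (x axis, not to scale), with vehicle arrays as circles, DKFZ-608 arrays as triangles and lines joining group means. In the 6 members that fell, all 3 vehicle arrays at 24 h lie below all 3 at 0 h. Treated arrays at 8 h overlap the vehicle arrays of that time except in CHAF1A, where all 3 lie above.

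CDT1, the loading factor that brings the MCM helicase to origins, was at 9.50, 9.55 and 9.59 in the 3 vehicle arrays at 0 h and at 8.75, 8.85 and 8.78 at 24 h. The arrays of the 2 times were well apart, and CDT1 fell by 0.75 ± 0.14 (SE, n = 3 and 3) on the log2 scale, a 1.68-fold difference (limma adjusted p = 0.00167). At 4 h its arrays read 9.56, 9.60 and 9.32 and overlapped those at 0 h. By 8 h most of the difference was present, with arrays at 8.90, 8.87 and 9.16, all below those at 0 h. CCNE1, cyclin E1, which drives CDK2 at the G1/S border, was at 8.85, 8.54 and 8.57 at 0 h and at 8.16, 7.90 and 7.91 at 24 h. Its arrays did not overlap either, and it fell by 0.66 ± 0.14 (SE, n = 3 and 3; limma adjusted p = 0.00779). Most of the CCNE1 difference was also present by 8 h, where the arrays read 8.13, 7.88 and 7.98. A second CCNE1 probe, with a mean of 6.43 near the filter value, differed by 0.04 over 24 h, and the mean of both probes gave -0.31 (limma adjusted p = 0.0246).

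UHRF1, which reads hemimethylated DNA behind the fork and recruits the maintenance methyltransferase, was at 10.91, 10.63 and 10.38 at 0 h and at 10.37, 9.997 and 9.60 at 24 h. The highest 24 h array was only just below the lowest 0 h array, and the fall of 0.65 ± 0.18 (SE, n = 3 and 3; limma adjusted p = 0.045) was the nearest to the threshold among the 6. Its second probe, at a mean of 6.47, differed by 0.06, and the mean of both probes gave -0.29 and did not pass (limma adjusted p = 0.166). CHAF1A, the large subunit of the chromatin assembly factor that deposits histones on new DNA, was at 7.90, 7.96 and 7.95 at 0 h and at 7.44, 7.495 and 7.48 at 24 h. Both groups were tight and apart, and CHAF1A fell by 0.47 ± 0.10 (SE, n = 3 and 3; limma adjusted p = 0.00984).

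GINS3, a subunit of the 4-part complex that holds CDC45 to the helicase, was at 9.82, 9.76 and 9.53 at 0 h and at 9.30, 9.20 and 9.16 at 24 h. These did not overlap, and GINS3 fell by 0.48 ± 0.10 (SE, n = 3 and 3; limma adjusted p = 0.00608). RFC4, a small subunit of the clamp loader, was at 10.98, 11.23 and 11.04 at 0 h and at 10.71, 10.77 and 10.63 at 24 h. It fell by 0.38 ± 0.09 (SE, n = 3 and 3; limma adjusted p = 0.0145), with no overlap, and its second probe differed by -0.35.

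With single arrays left out, calls over all genes were not counted. The number of falls rested on single arrays. It was 3 without H838 vehicle 0 h replicate 1 (CDT1, RFC4 and CHAF1A), 3 without 0 h replicate 2 (CDT1, GINS3 and CCNE1), 3 without 24 h replicate 3 (CDT1, GINS3 and CHAF1A) and 4 without 24 h replicate 2 (CDT1, GINS3, RFC4 and CHAF1A). With the 4 doubted H209 arrays left out, which changes only the shared estimate of the spread, it was 9, with GINS2, RPA2 and POLA2 added, among 2.51% of genes called in either direction. Whether replicates came from separate cultures is not in the labels, and a p-value here covers the spread from array to array, which may be technical.

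Across the licensing group all 10 members were below 0 over 24 h, with CDT1 the only one past the test and a median of -0.24. CDC6, the ATPase that works with CDT1 to load the helicase, was at 6.92, 6.997 and 7.23 at 0 h and at 6.99, 6.90 and 6.65 at 24 h, so its arrays overlapped (log2 difference -0.20 ± 0.09, SE, limma adjusted p = 0.355). Among the helicase subunits MCM2 to MCM7, the differences ran from -0.43 in MCM4 (adjusted p = 0.082) to -0.12 in MCM7, and MCM4 and MCM6 (-0.23) had arrays that did not overlap. A second, dimmer MCM4 probe differed by -0.08. Of the origin recognition subunits, ORC1 differed by -0.24 and ORC6 by -0.02. The ORC6 probe used was very bright (mean 13.63 over all arrays), and a second ORC6 probe with a mean of 8.72 differed by -0.26.

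In the firing group, MCM10, which helps to activate the loaded helicase, was at 10.16, 10.30 and 10.18 at 0 h and at 9.87, 9.75 and 9.49 at 24 h. The arrays did not overlap, but the difference of -0.51 ± 0.16 (SE) did not pass over all genes (limma adjusted p = 0.0938). GINS2 was similar at -0.50 (adjusted p = 0.104), whereas GINS1 (0.04), GINS4 (0.07) and CDC45 (-0.14) had overlapping arrays. The 4 GINS subunits therefore gave 1 fall past the test, 1 difference of like size that missed it, and 2 differences near 0. Whether the subunits differed from each other was not tested.

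All 5 clamp and clamp loader members were below 0, with RFC4 past the test. PCNA, the sliding clamp, was at 11.85, 12.10 and 11.84 at 0 h and at 11.79, 11.61 and 11.48 at 24 h. Its arrays did not overlap, at a difference of -0.31 ± 0.10 (SE, limma adjusted p = 0.111). RFC2, RFC3 and RFC5 differed by -0.10 to -0.16, with overlapping arrays.

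The 3 subunits of RPA, which act as 1 complex, lay on both sides of 0. RPA2 was lower at 24 h in every array (-0.34 ± 0.10, SE, limma adjusted p = 0.0682). RPA3, the smallest subunit, was at 11.12, 11.57 and 11.85 at 0 h and at 11.92, 11.91 and 11.92 at 24 h, a difference of 0.40 ± 0.12 (SE, limma adjusted p = 0.0842). The 0 h arrays were spread widely here and the 24 h arrays hardly at all. Without H838 vehicle 0 h replicate 3, the highest of the 3, RPA3 passed the test as higher. RPA1 differed by 0.12, and none of the 3 passed with all arrays.

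None of the 6 polymerase and primase members passed, and their median was -0.03. POLA2, the accessory subunit of polymerase alpha (-0.26), and POLE2, that of polymerase epsilon (-0.24), had arrays that did not overlap, while the catalytic subunits POLA1 (0.02), POLD1 (0.13) and POLE (0.14) and the primase PRIM1 (-0.09) overlapped. For the joining of Okazaki fragments, the flap nuclease FEN1 differed by -0.32 (adjusted p = 0.212) and the ligase LIG1 by 0.19 (adjusted p = 0.509). For nucleotide supply, RRM2, the S phase subunit of ribonucleotide reductase, was at 7.48, 7.27 and 7.24 at 0 h and at 7.25, 7.03 and 6.86 at 24 h, overlapping at a difference of -0.28 ± 0.17 (SE, limma adjusted p = 0.61). Its partner RRM1 differed by 0.03, and thymidylate synthase, TYMS, by 0.34 ± 0.15 (SE, limma adjusted p = 0.347), with overlapping arrays.

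Cyclin E1 was alone in its group in passing the test. Cyclin E2, CCNE2, was at 6.35, 6.44 and 6.62 at 0 h and at 6.29, 6.38 and 6.36 at 24 h, all near the filter value, so a change could hardly have been seen (-0.13 ± 0.07, SE, limma adjusted p = 0.512). The transcription factor E2F1 was at 7.22, 7.22 and 7.23 at 0 h and at 7.16, 7.17 and 7.18 at 24 h. Those groups did not overlap, yet they were only -0.05 ± 0.09 (SE) apart (limma adjusted p = 0.93).

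**Figure D2:**
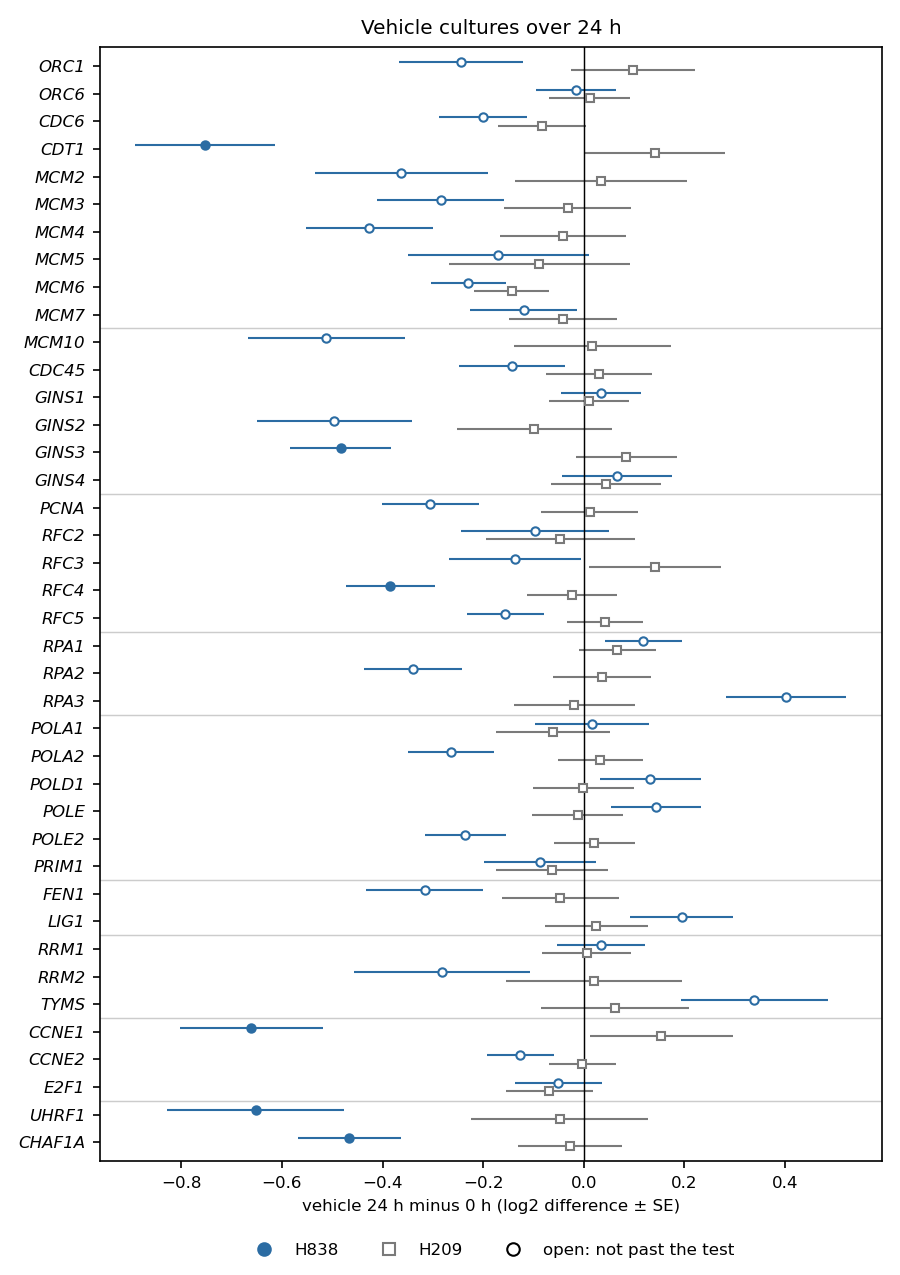
Log2 difference between vehicle arrays at 24 h and 0 h with its standard error (x axis) for all 40 members in role order (y axis, grey lines part the 9 role groups), H838 as circles and H209 as squares, filled where the adjusted p is under 0.05. In H838 30 members lie left of 0 and 6 are filled, and in H209 no member is filled and all lie between -0.14 and 0.15.

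The earlier times of the H838 vehicle course share the 0 h arrays with the 24 h comparison, so they are not separate support. At 4 h none of the 40 members passed (0.00539% of genes did), with a median of 0.04. An unadjusted p under 0.05 was found for 2 members and for 810 of all 18555 genes. At 8 h 2 members were lower, CDT1 and CCNE1, where 0.102% of all genes were lower and 0.587% changed in either direction. CDT1 fell by 0.57 ± 0.14 (SE, n = 3 and 3; limma adjusted p = 0.0452) and CCNE1 by 0.66 ± 0.14 (limma adjusted p = 0.0167), each on the log2 scale. Both calls rested on single arrays: no member passed without H838 vehicle 0 h replicate 1 or without 8 h replicate 2. CCNE1 alone passed without 0 h replicate 2 or 8 h replicate 1, CDT1 alone without 8 h replicate 3, and CCNE1 and GINS3 without 0 h replicate 3. The CDT1 adjusted p was up to 0.276 in these fits. Calls over all genes were not counted with single arrays left out or with the replicate block. At 8 h same-numbered arrays deviated together, and with the replicate block 5 members were lower (CDT1, CCNE1, MCM4, GINS3 and RFC4). With the 4 doubted H209 arrays left out there were 3, GINS2 being the third, among 0.771% of genes. LIG1 stood the other way at 8 h, with all arrays above those at 0 h (0.33 ± 0.10, SE, limma adjusted p = 0.234).

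Other genes of the cell cycle moved in the same H838 cultures. Among all 18555 genes tested, 197 rose and 154 fell over 24 h, and 90 rose and 19 fell at 8 h. The gene lists that follow were chosen with earlier results of these data known, which limits a comparison with these numbers. Of 39 measured further replication genes, 4 fell over 24 h (CDC25A, E2F2, TIPIN and CHAF1B) and 1 rose (DUT), with a median log2 difference of -0.11. E2F2, a transcription factor of the same family as E2F1, fell by 0.61 ± 0.14 (SE) and CDC25A, the phosphatase that activates CDK2, by 0.60 ± 0.16, each on the log2 scale. TIPIN, of the fork protection complex, fell by 0.44 ± 0.09, and DUT, which keeps uracil out of DNA, rose by 0.45 ± 0.12. Of 30 mitosis genes 24 rose over 24 h and none fell, with a median of 0.76, and 24 also rose at 8 h. The largest rises were in DLGAP5 (1.48 ± 0.18, SE), CCNB1, cyclin B1 (1.42 ± 0.23), and KIF20A, a kinesin of cell division (1.40 ± 0.23). Of 15 measured G1 control genes, the CDK inhibitor CDKN1C rose by 0.45 ± 0.10 and the D-type cyclin CCND3 fell by 0.39 ± 0.10. The part of the distribution of cells over the cell cycle in the members' differences was not tested, and in bulk RNA fewer cells in a phase and less RNA per cell cannot be told apart.

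In H209 vehicle cultures no member passed at 4, 8 or 24 h, where 0, 0.0108 and 0.0162% of all genes did. No member had an unadjusted p under 0.05 at any of these times, where 439, 666 and 697 of all 18555 genes had. Over 24 h the median log2 difference was 0.01, and the 40 differences ran from -0.14 to 0.15, with 21 above 0 and 19 below. Without the 4 doubted arrays no member passed either (0.00539, 0.0162 and 0.0593% of genes), the median over 24 h was 0.05, and 29 members were above 0. For CDT1 the H209 vehicle arrays read 10.13, 9.99 and 10.29 at 0 h and 10.18, 10.03 and 10.62 at 24 h, the last being a doubted array. The 95% interval of its log2 difference ran from -0.14 to 0.42. For CCNE1 they read 8.27, 8.01 and 8.10 at 0 h and 8.54, 8.29 and 8.02 at 24 h, the last again the doubted array, with an interval from -0.14 to 0.44. With all arrays, neither interval held a decrease of the size seen in H838.

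The difference between the lines was tested directly. The vehicle course from 0 to 24 h differed between H838 and H209 in 1 of 40 members, CDT1 (H838 minus H209 -0.89 ± 0.20, SE, on the log2 scale, limma adjusted p = 0.0467), where 0.162% of all genes differed in either direction and 0.0593% in this one. CCNE1 (-0.82, adjusted p = 0.0856) and GINS3 (-0.57, adjusted p = 0.0956) did not pass. The call did not hold without the doubted arrays, where the H209 difference was -0.03, CDT1 gave -0.72 (limma adjusted p = 0.0805) and CCNE1 passed in its place (-0.95, limma adjusted p = 0.0307, with 0.162% of genes called in either direction again). When the arrays of these groups were left out one at a time, CDT1 passed only without H209 vehicle 24 h replicate 2 (limma adjusted p = 0.0276), and leaving out any of the others gave 0.0569 to 0.157. With the time field (8 h) in place of the title (24 h) for H209 vehicle replicate 3, CDT1 did not pass (limma adjusted p = 0.165) and CCNE1 did.

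DKFZ-608 had no detectable effect on any of the 40 members in H838. At 4, 8 and 24 h, 0 members passed, and 0% of all genes passed at each time. The spread in this fit is shared with the 4 doubted H209 arrays. MT1M did not pass at 8 h, though treated H838 arrays read 9.26, 9.69 and 8.78 against 7.27, 7.29 and 7.34 in vehicle. The HMOX1 and TXNRD1 arrays of H838 overlapped at that time. At an unadjusted p under 0.05 there were 0, 1 and 0 members, and 493, 638 and 562 of all 18555 genes. The 1 member was RPA1 at 8 h (0.20 ± 0.08, SE). The median log2 differences were 0.02, 0.02 and 0.03, and the 40 differences ran from -0.20 (TYMS at 4 h) to 0.22 (RFC2 at 24 h). The median half-width of the 95% interval was 0.22 at 4 and 8 h and 0.24 at 24 h. These intervals are not adjusted for the number of genes, and a call over all genes needs a larger difference. Effects somewhat larger than these widths could therefore have been missed as well. With the doubted H209 arrays left out there were again 0 members at each time, and 0.0216, 0.0269 and 0.0108% of all genes passed.

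For the genes that fell, the 2 treated H838 arrays at 24 h averaged above the vehicle arrays in all 6, by amounts that did not pass the test. These 6 were picked because the same vehicle arrays were low at 24 h. That choice by itself favours treated values above vehicle, so the shared sign is not a separate result. CDT1 read 9.12 and 8.78 with DKFZ-608 (difference from vehicle 0.16, 95% interval -0.16 to 0.47), CCNE1 8.16 and 7.88 (0.03, -0.30 to 0.35) and UHRF1 10.21 and 9.86 (0.04, -0.36 to 0.44). The treated CCNE1 and UHRF1 arrays overlapped the vehicle arrays, and of the 2 CDT1 arrays 1 was above all vehicle arrays. GINS3 read 9.40 and 9.36 (0.16, -0.07 to 0.39), RFC4 10.90 and 10.82 (0.16, -0.04 to 0.36) and CHAF1A 7.85 and 7.44 (0.18, -0.06 to 0.41). Both treated GINS3 and RFC4 arrays were above all vehicle arrays, with intervals that include 0. The same choice favours this, and the share of all genes with such arrays was not counted. Among all 40 members both treated arrays were above all vehicle arrays in 3 and below all of them in 1. PCNA read 11.76 and 11.68, MCM10 9.99 and 9.85, RRM2 7.12 and 6.99, CDC6 6.82 and 6.85, CCNE2 6.38 and 6.44, and E2F1 6.996 and 7.12. In E2F1 both treated arrays were below all 3 vehicle arrays, and in the other 5 the treated and vehicle arrays overlapped.

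The 2 treated arrays at 24 h were also set against the same 0 h vehicle arrays, in a comparison added after the data had been seen. This gave 0 members past the test (0.21% of genes were lower). Of all 18555 genes 1740 had an unadjusted p under 0.05, and 13 members did. The median was -0.17, 30 members were below 0, and CCNE1 (-0.64, limma adjusted p = 0.0553) and CDT1 (-0.60, limma adjusted p = 0.0675) came nearest. This comparison shares its 0 h arrays with the vehicle course. The count without the 4 doubted H209 arrays was 2, CDT1 and CCNE1, where 0.992% of genes were called in either direction.

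**Figure D3:**
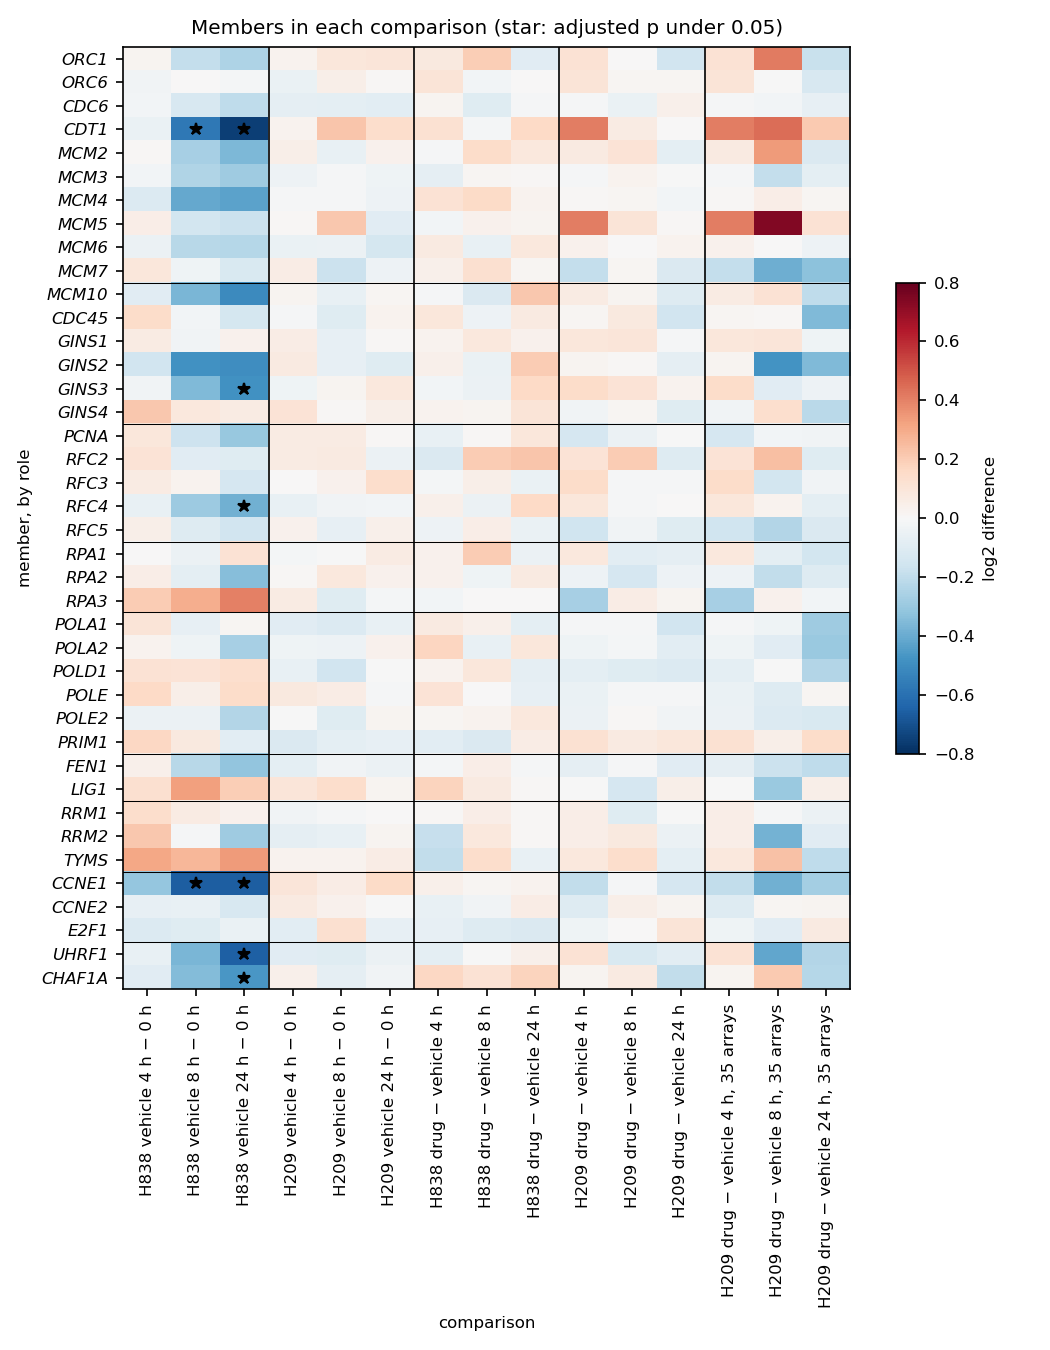
Log2 difference (colour) of each member (y axis, by role) in each comparison (x axis): vehicle courses in H838 and H209, drug minus vehicle in H838 and H209, and drug minus vehicle in H209 with 35 arrays, after leaving out the 4 doubted ones. Stars mark an adjusted p under 0.05 and stand only in the H838 vehicle course, 2 at 8 h and 6 at 24 h.

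In H209, where the drug changed 121 genes at 4 h (0.652%), none of the 40 members passed at 4, 8 or 24 h with all arrays as labelled (0% of genes at 8 and at 24 h). At 4 h, 4 members had an unadjusted p under 0.05, as had 1394 of all 18555 genes. In all 4 the groups did not overlap, and the share of all genes without overlap was not counted. Among all 40 members every treated array lay below every vehicle array in 4 and above in 5, so other members were apart too. CDT1 was at 10.19, 9.99 and 10.32 in vehicle and at 10.40, 10.56 and 10.78 with DKFZ-608, all treated arrays being higher (0.41 ± 0.14, SE, limma adjusted p = 0.255). MCM5, a helicase subunit, was at 8.86, 8.87 and 8.81 in vehicle and at 9.48, 9.23 and 9.07 with the drug (0.41 ± 0.18, SE, limma adjusted p = 0.55). RPA3 (-0.27) and RFC5 (-0.16) were lower in every treated array. These genes are named because of their values and none passed over all genes.

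Without the 4 doubted arrays, 1.88%, 1.42% and 1.66% of all genes passed at 4, 8 and 24 h, and again 0 of 40 members. CDT1 at 4 h came to an adjusted p of 0.0637 (difference unchanged, since no 4 h array was left out). At 8 h a single array stood on each side, whose spread is taken from the other groups, and MCM5 (9.51 treated against 8.76) and MCM7 (11.69 against 12.08) were the farthest by p, at differences of 0.74 (limma adjusted p = 0.263) and -0.39 (limma adjusted p = 0.165). At 24 h, with 2 arrays against 2, MCM7 read 11.88 and 11.82 with the drug against 12.10 and 12.26 (-0.33 ± 0.09, SE, limma adjusted p = 0.0548). POLA2 differed by -0.30 (adjusted p = 0.0668), CDC45 by -0.35 (adjusted p = 0.117) and GINS2 by -0.36 (adjusted p = 0.348).

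The 24 h median of the 40 log2 differences was -0.10 without the doubted arrays, against -0.01 for all genes, and -0.03 with them. Of the members, 32 were below 0. In 21 of 40 both treated arrays lay below both vehicle arrays, where 23.7% of all genes did, and in 2 both lay above, where 19.8% did. All 6 firing members, all 5 clamp members and all 3 RPA subunits were below 0, whereas CDT1 was the highest of the 40 at 0.21. The members fell on either side of 0 at 8 h, 17 above and 23 below.

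**Figure D4:**
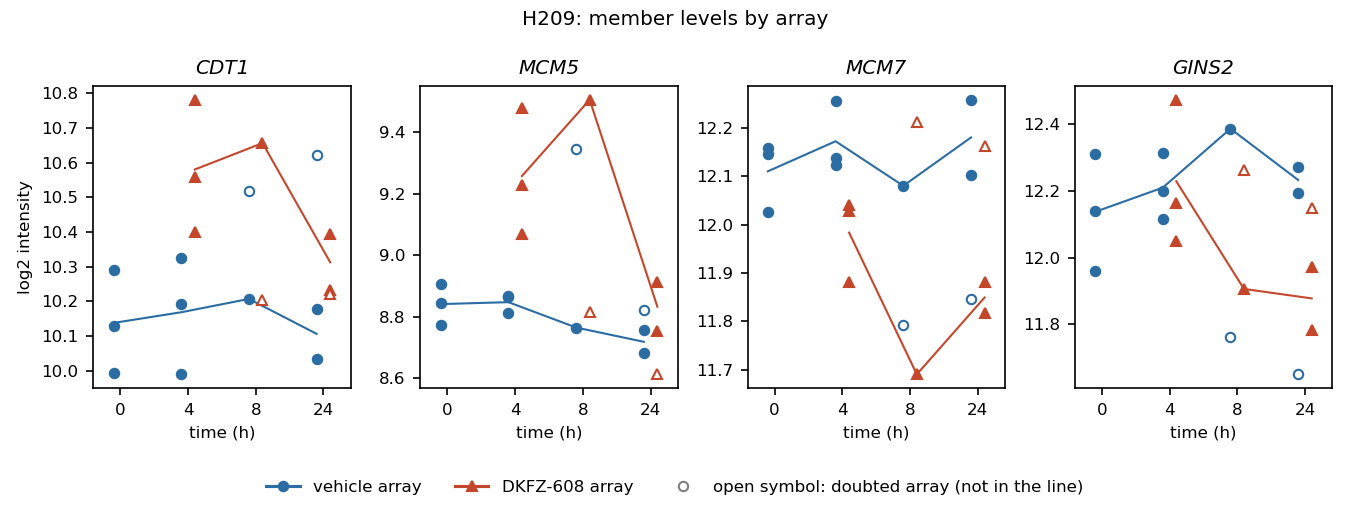
Log2 intensity of CDT1, MCM5, MCM7 and GINS2 in each H209 array (y axis) by time (x axis, not to scale), vehicle as circles and DKFZ-608 as triangles. Open symbols are the 4 doubted arrays, and the lines join group means without them. At 8 h each open vehicle circle lies nearer to the filled treated triangle, and each open treated triangle nearer to the filled vehicle circle, in all 4 genes.

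The doubted arrays also stood apart in some values of these members, which are named because of their values. In CDT1 the doubted vehicle array at 8 h read 10.52 against 10.21 in the other, and the doubted treated array 10.20 against 10.66. In MCM5 the doubted vehicle array at 8 h read 9.35 against 8.76, and the doubted treated one 8.82 against 9.51. In MCM7 at 24 h, the doubted vehicle array read 11.85 and the doubted treated array 12.16, each nearer to the other treatment's remaining arrays. This did not hold everywhere: in CDT1 at 24 h the doubted treated array read 10.22, beside 10.23 in treated replicate 2. The labels were kept as given in all fits that include these arrays, and why the arrays stand apart was not tested.

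For the remaining genes always shown, PCNA ran from 11.58 to 11.87 over all 19 H209 arrays, CDC6 from 6.59 to 6.96, E2F1 from 6.68 to 7.22 and CCNE2 from 6.43 to 6.72. MCM10 ran from 8.17 to 8.91 in all, with the replicate 1 arrays at 8.17 to 8.46 and the replicate 3 arrays at 8.63 to 8.91. RRM2 ran from 7.61 to 8.26, UHRF1 from 9.76 to 10.35 and CCNE1 from 7.91 to 8.54. With the doubted arrays left out, both treated arrays at 24 h lay below both vehicle arrays in CCNE1 (8.27 and 8.02 against 8.54 and 8.29; -0.27 ± 0.16, SE, limma adjusted p = 0.65). The same held for UHRF1 (10.12 and 10.05 against 10.35 and 10.29; -0.23 ± 0.20, SE, limma adjusted p = 0.836), and neither passed.

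The drug effect was not shown to differ between the lines in any member at 4, 8 or 24 h, where 0.0485%, 0% and 0% of all genes differed. Members with an unadjusted p under 0.05 numbered 0, 1 and 1, where 996, 475 and 467 of all 18555 genes had such a p. At 4 h the differences of effects ran from -0.43 to 0.24 with a median of 0.02, and at 24 h the median was 0.06. Without the doubted arrays there were also 0 members at each time, where 0.717, 0.776 and 0.679% of all genes differed.

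The lines themselves differed before treatment. At 0 h 16 members were higher in H838, where 21.3% of all genes were, and 13 were higher in H209, where 24.5% were, and together they make 72.5% of the members. By the brightest probe of each gene, MCM10 had the largest excess in H838, with 10.16, 10.30 and 10.18 against 8.18, 8.57 and 8.77 in H209 (1.71 ± 0.16, SE, limma adjusted p = 2.48e-11). A second, dimmer MCM10 probe (mean 7.37) differed by 0.77, so this rank rests on the probe used. GINS3 followed with 9.82, 9.76 and 9.53 against 8.11, 7.85 and 8.13 (1.67 ± 0.10, limma adjusted p = 7.22e-16), and RPA2 with a difference of 0.96 ± 0.10. GINS2 had the largest excess in H209, at 10.14, 10.25 and 10.13 in H838 against 12.31, 11.96 and 12.14 (-1.96 ± 0.15, limma adjusted p = 6.47e-13). TYMS (-1.17 ± 0.15) and POLA1 (-1.10 ± 0.11) were next. The arrays of the lines did not overlap for any of these 6 genes.

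Within complexes, the line differences took both signs. Of the GINS subunits, GINS3 was higher in H838, GINS2 higher in H209, and GINS1 and GINS4 (-0.03 and 0.01) did not pass. Of RPA, RPA2 was higher in H838 and RPA1 (-0.96) and RPA3 (-0.75) higher in H209. Of the helicase subunits, MCM5 (0.63) and MCM6 (0.58) were higher in H838 and MCM3 (-0.68) and MCM4 (-0.31) in H209. The genes that fell in H838 vehicle cultures were picked with the same H838 arrays at 0 h, which favours high H838 values here. Of these genes, CCNE1 (0.53), GINS3, UHRF1 (0.46) and RFC4 (0.34) were higher in H838 at 0 h, CDT1 (-0.59) was higher in H209, and CHAF1A (0.14) did not pass. Some of these calls were weak: MCM4 was lost without H838 0 h replicate 2 or 3 or H209 0 h replicate 1 or 3 and with quantile normalization or the offset of 16 (limma adjusted p up to 0.159), and UHRF1 without H838 0 h replicate 1 or 2 or H209 0 h replicate 2 or 3 (up to 0.19). With the mean of a gene's probes, UHRF1 gave 0.18 and RFC3 0.002, neither of which passed, and CCNE1 gave 0.28 and passed. A difference in a single probe between lines can also come from the probe's match to each line's sequence, which was not tested. CDC6 (0.23) and E2F1 (0.28) were higher in H838, RRM2 (-0.67) in H209, and PCNA (0.20) and CCNE2 (-0.11) did not pass. The CDC6 call was lost without H838 0 h replicate 3 or H209 0 h replicate 2 or 3 (limma adjusted p up to 0.252). The POLA1 difference was -0.66 with the mean of its probes, and still passed.

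**Figure D5:**
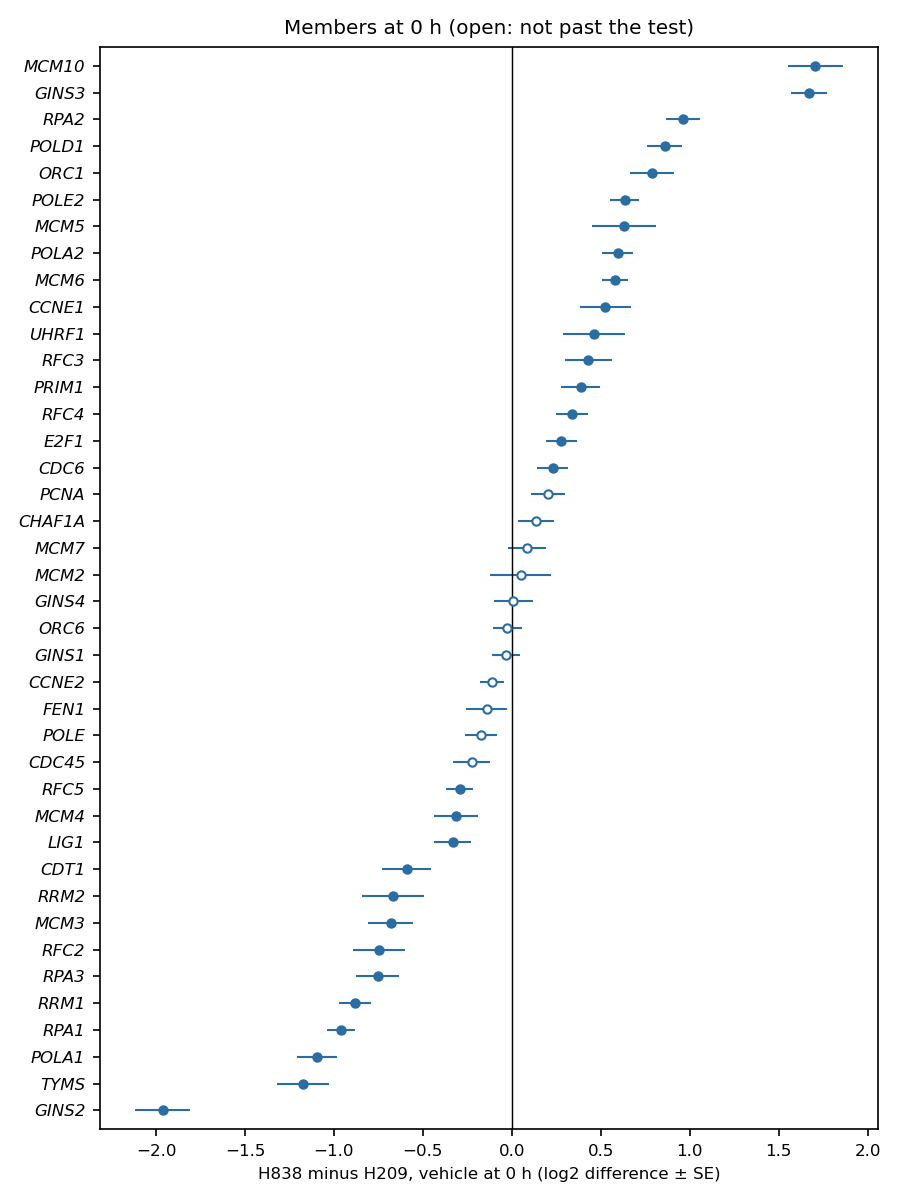
Log2 difference between H838 and H209 vehicle arrays at 0 h with its standard error (x axis) for the 40 members in order of the difference (y axis), filled where the adjusted p is under 0.05. Of the members, 16 are filled right of 0, 13 are filled left of 0, and the range is from -1.96 in GINS2 to 1.71 in MCM10.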

How the data were processed

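Per the labels' protocols, total RNA was column-purified, amplified to biotin-labelled cRNA and hybridised to Illumina bead arrays. The deposited values are probe intensity on a linear scale, 1 column per array. The scanner, summary software and normalization are not given in the sources used here. Array quartiles differed by at most 0.0719 on the log2 scale, so the deposited normalization was kept. Titles gave each array's time, because for 1 H209 vehicle array (replicate 3) the title said 24 h and the time field 8 h, and for another (replicate 2, 24 h) the field was absent.

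Of 48107 probes, 20 with empty cells were left out. Intensities were floored at 75.78 (percentile 1), log2 was taken of the deposited values, and 42925 probes above log2 6.548 in at least 2 arrays were kept. Of these, 26943 had exactly 1 gene symbol in the platform annotation, and the brightest probe stood for each of 18555 genes. limma 3.58.1 in R 4.3.3 fitted 14 group means over all 39 arrays with 25 residual and 6.79 prior degrees of freedom. All 18 contrasts were tested two-sided and adjusted by Benjamini-Hochberg over all genes of a contrast. Data were simulated for the H838 24 h comparison with 18555 genes, 50 of them changed at each size. The noise was drawn independently for each array, whereas same-number arrays deviated together in some measured comparisons. Of genes changed 1.25-fold 52% were recovered, of those changed 1.5-fold 88% and of those changed 2-fold 100%, with 5 false calls. Recovery was not measured for the members alone. In the measured data MCM10 (log2 difference -0.51), GINS2 (-0.50) and MCM4 (-0.43) missed the threshold and RFC4 (-0.38) passed. These shares therefore need not hold for the members.

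The members, the role groups and the further gene lists were chosen with earlier results of these data known. Per-array values were printed for members past the test (up to 10 falls and 5 rises at 24 h in H838 vehicle cultures, and the 3 largest in each direction elsewhere) and always for CDC6, MCM10, PCNA, RRM2, CCNE1, CCNE2, E2F1 and UHRF1. Same-number arrays were taken as paired where the correlation of their deviations from group means was over 0.1 in each of 3 pairs. This held for H838 vehicle at 8 h against 0 h (0.14 to 0.24), H209 vehicle at 4 h against 0 h (0.25 to 0.56) and the H209 drug effect at 4 h (0.14 to 0.55). Promoter words were searched in the RefSeq promoter table on both strands. Alternatives changed the arrays, spread, filter, floor, background, normalization, probe choice, weights and block.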

Additional observations from a re-analysis of the deposited data

Results flagged for a closer look

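In the fit with all arrays, the course of CDT1 in vehicle cultures differed between the lines by a direct test, though only just past the threshold. The log2 difference of 24 h minus 0 h was lower in H838 than in H209 by a contrast of -0.8931 (limma adjusted p = 0.0467), with H838 at -0.75 and H209 at 0.14. All 3 H838 arrays at 24 h were below those at 0 h, while the H209 arrays overlapped. One H209 array at 24 h, the doubted replicate 3, was the highest of its group at 10.62. Without the 4 doubted arrays the H209 difference was -0.03 and the contrast -0.72 (limma adjusted p = 0.0805). The call was lost under 16 of 21 alternatives, the time field in place of the title among them, with adjusted p from 0.00672 to 0.165 over the 21.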

How the results depend on the processing

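Results were recomputed under 12 alternatives and with each of the 39 arrays left out in turn. Apart from the fit without the 4 doubted arrays, calls over all genes were not counted in these. Of 38 member results past the test none changed sign under these, 14 missed the threshold under at least 1, and 29 of 36 counts of members stayed within 1.5 times. The replicate block, a paired analysis, gave 5 members lower at 8 h and 12 lower and 1 higher at 24 h in the H838 vehicle course, and 6 lower and 1 higher in the treated 24 h arrays against 0 h. It gave 4 in the line difference of the vehicle course and changed no other count of members. The block with the H838 spread alone gave 6 lower at 8 h, 11 lower and 1 higher at 24 h, and 6 in the treated arrays against 0 h. At 24 h not every pair correlated over 0.1, so these numbers are not pairs by the design there. Array weights gave 5 lower at 8 h, 12 at 24 h, 2 in the treated arrays against 0 h, 3 in the line difference and 1 higher in H209 treated for 4 h (CDT1). Subtracting the lowest value with an offset of 16 left 1 lower at 8 h and 0 in the line difference. The mean of a gene's probes left 1 lower at 8 h, 0 in the line difference and 1 in the treated arrays against 0 h. At 0 h the mean of probes also took the line difference of RFC3 to 0.002 (brightest probe 0.43), of RFC2 to -0.33 (brightest probe -0.75) and of RFC5 to -0.14 (brightest probe -0.29). No filter left 0 in the line difference. Treated against 0 h, 2 were lower without the 4 doubted arrays, 2 with the H838 spread alone and 1 after quantile normalization. Leaving out single arrays gave 0 to 2 lower at 8 h, 3 to 7 lower and 0 to 1 higher at 24 h, 0 to 1 higher in the treated arrays against 0 h and 0 to 1 in the line difference. The cause was not tested. Depth of signal is limited for probes near background, among them CCNE2 and GINS1, and by groups of 2 or 3 arrays.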
